A study of Homo sapiens with 82 samples.

Results

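In HT29 colorectal cancer cells, 1222 sites had a peak of the histone mark H3K27ac called after 48 h of GW3965. No H3K27ac peak was called there with the vehicle DMSO or with rosiglitazone. These sites were 5.42% of the 22527 H3K27ac sites of cells treated with GW3965 for 48 h. Peaks of replicates 1 and 2 that shared 1 bp or more were merged into a site. Sites gained with GW3965 only were chosen by their H3K27ac peaks: they overlapped no peak in either DMSO replicate and none in the 4 rosiglitazone libraries of 24 and 48 h. These absences and the 48 h scores therefore come from the choice and are given as a description. The other 48 h GW3965 sites were 19498 retained from DMSO (86.6%) and 1807 gained with both drugs (8.02%), which had no DMSO peak but at least 1 rosiglitazone peak. A further 780 sites were gained with rosiglitazone only.

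HT29 is an established colorectal adenocarcinoma line. The cells were grown in medium with hormone-depleted serum and received DMSO alone, 10 μM GW3965, an agonist of the liver X receptors, or 10 μM rosiglitazone, an agonist of PPARG, each dissolved in DMSO. A second LXR agonist, T0901317 at 10 μM, was given in RNA-seq groups that entered the fit of the spread and the marker ranges. Each ChIP-seq group had 2 replicates. H3K27ac and RNA polymerase II (RNAP2) were mapped with DMSO and, at 24 and 48 h, with either drug. LXRA and LXRB were mapped after 2 and 48 h of GW3965, PPARG after 2 and 48 h of rosiglitazone, and JunD with DMSO only. The labels of the DMSO groups of H3K27ac, RNAP2 and JunD give no hour. Both times of a drug were set against the same DMSO libraries in ChIP-seq. The part of time in the ChIP-seq differences from DMSO was not tested. LXRA was detected through a FLAG tag on a transfected transgene in selected cells, whereas LXRB, PPARG and JunD were detected with antibodies to the proteins. RNA-seq had 4 replicates per treatment at 24 and at 48 h. No label says that replicates were separate cultures, so p-values measure only the spread between these samples. The 10 H3K27ac libraries held from 23015 peaks (replicate 1 of DMSO) to 31824 (replicate 1 of 48 h GW3965). Both of these libraries were used by the rule, the first for absence and the second for presence of a peak. With equal peak numbers in the libraries of the rule, fewer sites were gained with GW3965 only, as given in the last section. The read depth of the ChIP libraries is unknown, and intervals of shares cover counting error only.

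H3K27ac is an acetyl group on a lysine of histone H3 that is placed by EP300 and CREBBP, read by BRD proteins and removed by histone deacetylases. It marks active promoters and enhancers. LXRA (gene NR1H3) and LXRB (NR1H2) are nuclear receptors activated by oxidized cholesterol derivatives. They bind DNA as partners of RXR and recruit corepressors without agonist and coactivators with it. PPARG is a related receptor for fatty acid ligands that shares the RXR partner. JunD is a subunit of AP1, a factor that binds many enhancers of epithelial cells.

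The sites gained with GW3965 only had low peak scores. The score of a peak was minus 10 times the log10 of the p that the peak caller gave it. No deposited peak was under 100, so the lack of a peak does not show a lack of acetylation. The median score of these sites was 181 in replicate 1 and 154 in replicate 2, against 648 and 328 at retained sites. The lower of both scores was under 150 at 753 sites (61.6%) and at least 300 at 48 (3.93%). Their median width was 1491.5 bp (range 471 to 5369), against 2635 bp at retained sites and 1635 bp at sites gained with both drugs.

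The rule fixed that no site overlapped an H3K27ac peak called with DMSO or rosiglitazone, so distances to these peaks are given as a description. The nearest DMSO or rosiglitazone H3K27ac peak was a median of 10370 bp away. It was within 1 kb of 120 sites (9.82%), within 10 kb of 599 (49.0%) and farther than 100 kb from 74 (6.06%). The nearest DMSO peak was a median of 14931.5 bp from members and 10470 bp from sites gained with both drugs. It was within 10 kb of 39.3% and 48.6% of them. At the edge of the rule, 6 sites had an excluded peak within 50 bp, the closest with a gap of 1 bp, and 6 sites were left out for an overlap of at most 50 bp, the smallest being 2 bp. With members at most 20 kb apart joined, 1053 stood alone and 169 fell into 79 clusters. The largest cluster held 5 members at chr4:27049914-27087118 (build hg19). Members were 8.12% of the 48 h GW3965 sites of chromosome 13 (Wilson 95% interval 6.21 to 10.5) and 2.38% of those of chromosome 19 (1.55 to 3.65), the highest and lowest shares of the 23 chromosomes. Their share of all 48 h GW3965 sites was 5.42%. Sites gained with both drugs were 8.93% of chromosome 13 and 1.55% of chromosome 19, against 8.02% of all. Chromosome 19 held their lowest share too, so a low share there was not particular to members.

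LXRA was the factor found most often. An LXRA site, meaning peaks of both replicates, was present after 2 h of GW3965 at 400 of the 1222 sites, or 32.7% (Wilson 95% interval 30.2 to 35.4). The same share was 42.2% over all 48 h GW3965 sites, 46.5% at sites gained with both drugs and 22.8% at sites gained with rosiglitazone only. By replicate, 45.2% and 34.9% of the sites held an LXRA peak at 2 h. After 48 h, 233 sites (19.1%, 17.0 to 21.4) held an LXRA site, against 39.7% of all sites and 41.6% of retained sites. At sites gained with rosiglitazone only the 48 h share was 31.7% (28.5 to 35.0), above that of members, whereas at 2 h it was below. Members had fewer LXRA sites at 48 h than at 2 h. Sites gained with both drugs did too, with 46.5% at 2 h and 33.1% at 48 h. The shares of retained sites at 2 and 48 h were close, 42.4% and 41.6%. Of the members, 205 had LXRA at both times, 195 at 2 h only and 28 at 48 h only.

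**Figure D1:**
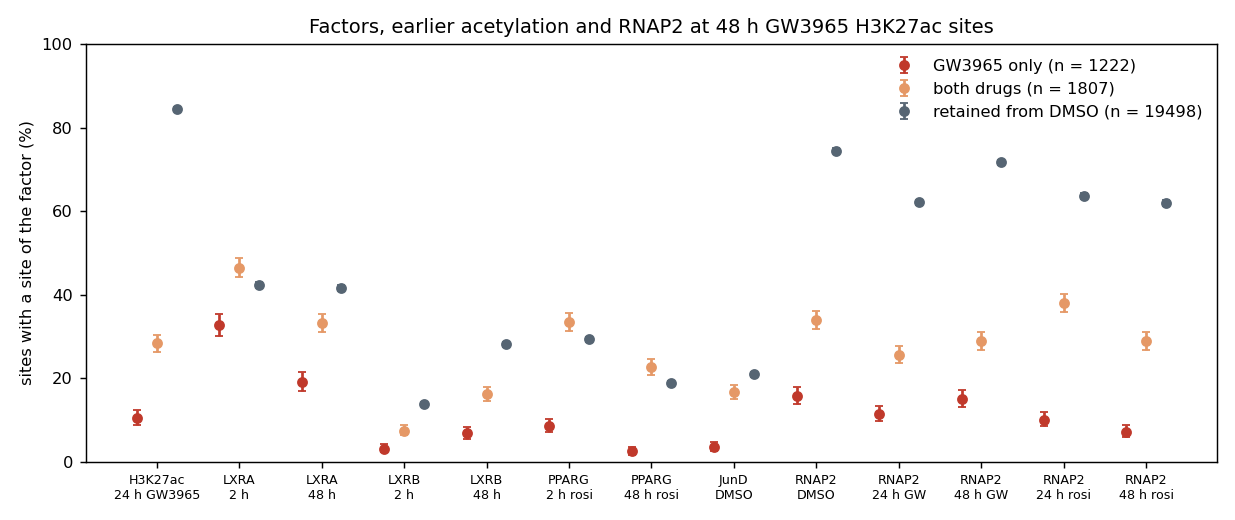
Percent of sites (y axis) with a reproducible site of each factor or mark (x axis) among sites gained with GW3965 only, sites gained with both drugs and sites retained from DMSO. Points are shares and bars are Wilson 95% intervals. Sites gained with GW3965 only had the lowest share of the 3 sets in every column, from 32.7% for LXRA at 2 h down to 2.45% for PPARG at 48 h.

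LXRB was much rarer at these sites. At 48 h, 83 sites (6.79%, 5.51 to 8.34) held an LXRB site, against 26.0% of all 48 h GW3965 sites, 28.1% of retained sites and 16.2% of sites gained with both drugs. Sites gained with rosiglitazone only also had a higher LXRB share at 48 h than members, at 13.6% (11.4 to 16.2). At 2 h the share was 3.11% of members, 12.6% of all sites and 4.74% of sites gained with rosiglitazone only. LXRB at 48 h was seen mostly where LXRA was, at 70 sites with both and 13 with LXRB without LXRA. Any LXR site at either time was present at 438 members (35.8%), against 38.8% of sites gained with rosiglitazone only and 54.2% of all sites. No peak in any of the 8 LXR libraries was present at 592 members (48.4%).

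The share of members with LXR differed between classes of H3K27ac score. The scores come from the GW3965 libraries that chose the members. The class shares and intervals here, and those of JunD below, are therefore a description and carry no test. In the 753 members with a lower score under 150, 26.4% held LXRA at 2 h. The share was 35.7% of the 266 members between 150 and 200, 50.3% of the 155 between 200 and 300 (Wilson 95% interval 42.5 to 58.1) and 58.3% of the 48 at 300 or more (44.3 to 71.2). At retained sites of the same 4 score classes, the shares were 27.1, 32.5, 35.9 (34.4 to 37.4) and 52.5%. The members' interval lay above that of retained sites in the class from 200 to 300 and overlapped it in the other 3. Sites gained with both drugs had higher LXRA shares at 2 h than members in every class, at 38.9, 45.6, 57.6 and 66.7%. At 48 h the members' LXRA shares of 15.5, 17.7, 32.3 and 39.6% were all below those of retained sites, at 26.9, 31.6, 33.9 and 52.1%, with intervals apart in the first and second class. LXRB at 48 h lay between 5.26% and 20.8% of members across the classes, below the retained sites of the same class, which ranged from 15.1% to 37.5%. For LXRB, the intervals of members and retained sites did not overlap in any of the 4 classes.

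**Figure D2:**
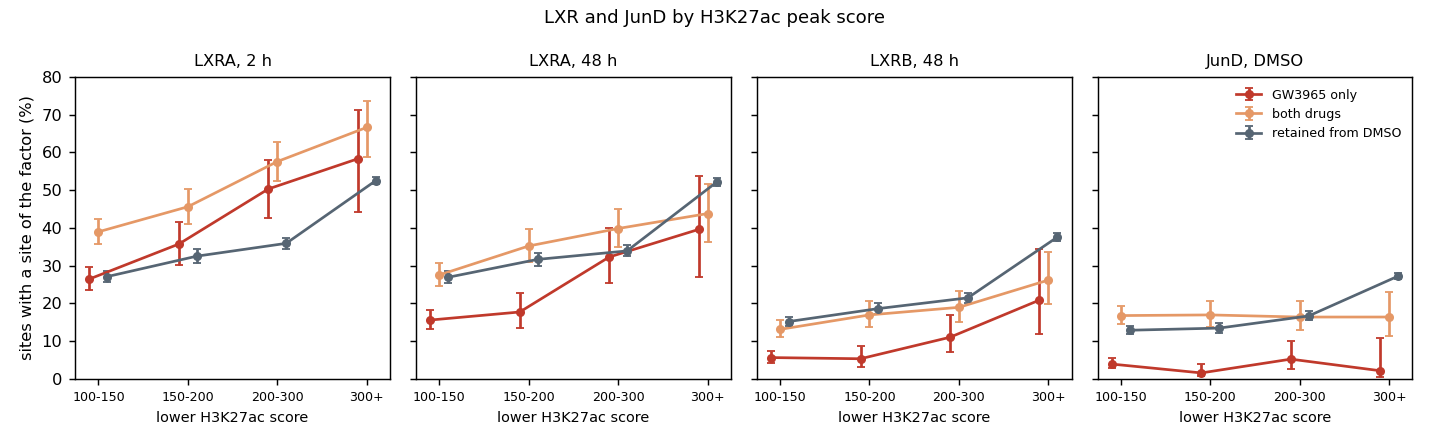
Percent of sites (y axis) with LXRA at 2 h, LXRA at 48 h, LXRB at 48 h and JunD with DMSO, by the lower of the H3K27ac scores of both replicates at 48 h of GW3965 (x axis, 4 classes). Points are shares, bars are Wilson 95% intervals and lines join the classes of a set. LXRA at 2 h went from 26.4% to 58.3% of sites gained with GW3965 only, while JunD was at most at 5.16%. The scores come from the libraries that chose these sites, so the shares carry no test.

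JunD, mapped in cells that had received DMSO, was rare at the members. A JunD site was present at 42 members (3.44%, 2.55 to 4.61), against 19.6% of all 48 h GW3965 sites, 16.7% of sites gained with both drugs and 26.3% of sites gained with rosiglitazone only. Within each score class, JunD was found at 5.16% of members at most and at 12.8% to 27.2% of retained sites. The interval of members lay below that of retained sites in all 4 classes. The rule excluded sites with an H3K27ac peak in the same DMSO condition in which JunD was mapped, and JunD after GW3965 was not analysed here.

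The 42 members with JunD often held other factors as well, as JunD sites did in the other sets. LXRA at 2 h was present at 34 (81.0%, 66.7 to 90.0), against 31.0% of the 1180 members without JunD. LXRB at 48 h was present at 22 (52.4%, 37.7 to 66.6) against 5.17%. RNAP2 with DMSO was present at 38 (90.5%, 77.9 to 96.2) against 13.1%, so nearly all JunD members had polymerase without the drug. The same 3 shares at JunD sites were 80.7, 54.8 and 81.1% among sites gained with both drugs and 79.4, 70.8 and 98.2% among retained sites. H3K27ac at 24 h of GW3965 was at 4 of them (9.52%), near the 10.5% of members without JunD. The 83 members with LXRB at 48 h were similar: 85.5% had LXRA at 2 h, 26.5% had JunD and 66.3% had RNAP2 at 48 h of GW3965. These shares describe peaks over the same sites, which share their libraries, and carry no test.

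PPARG was mapped in cells treated with rosiglitazone, the drug under which no H3K27ac peak was called at the members. It was present at 104 members (8.51%) at 2 h, against 28.5% of all sites, and at 30 (2.45%) at 48 h, against 18.3%. At sites gained with both drugs, PPARG was present at 33.5% and 22.7%. Of the 107 members with PPARG at either time, 36 had no LXR site. No site of LXR, JunD or PPARG was found at 745 members (61.0%).

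Acetylation of the members after 24 h of GW3965 differed widely between the replicates, which the rule had not used. Peaks of replicate 1 covered 181 members (14.8%) and peaks of replicate 2 covered 709 (58.0%). At retained sites the same libraries covered 92.6% and 89.9%, and at sites gained with both drugs 36.9% and 70.7%. The replicates thus differed in the same direction at both sets of gained sites and little at retained sites. A reproducible 24 h site was present at 128 members (10.5%, 8.88 to 12.3), against 75.9% of all 48 h GW3965 sites and 28.3% of sites gained with both drugs. Of the others, 581 members had a 24 h peak in replicate 2 only, 69 in replicate 1 only and 444 (36.3%) in neither. At 48 h, the 128 members with a 24 h site had a median lower score of 161, against 124 for those with no 24 h peak.

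The 69 members with a 24 h peak in replicate 1 only had the highest shares of LXRA, LXRB at 48 h, PPARG at 2 h and JunD. LXRA at 48 h was at 44.9% of them (33.8 to 56.6), against 14.6% of the members with a peak in replicate 2 only. LXRB at 48 h was at 26.1% (17.2 to 37.5) against 3.79% (2.51 to 5.67), and JunD at 14.5% (8.07 to 24.7) against 1.72% (0.938 to 3.14). LXRA at 2 h differed less, with 44.9% (33.8 to 56.6) and 35.5% (31.7 to 39.4). Which members counted as acetylated at 24 h thus depended on the replicate, and the factors at them differed too.

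**Figure D3:**
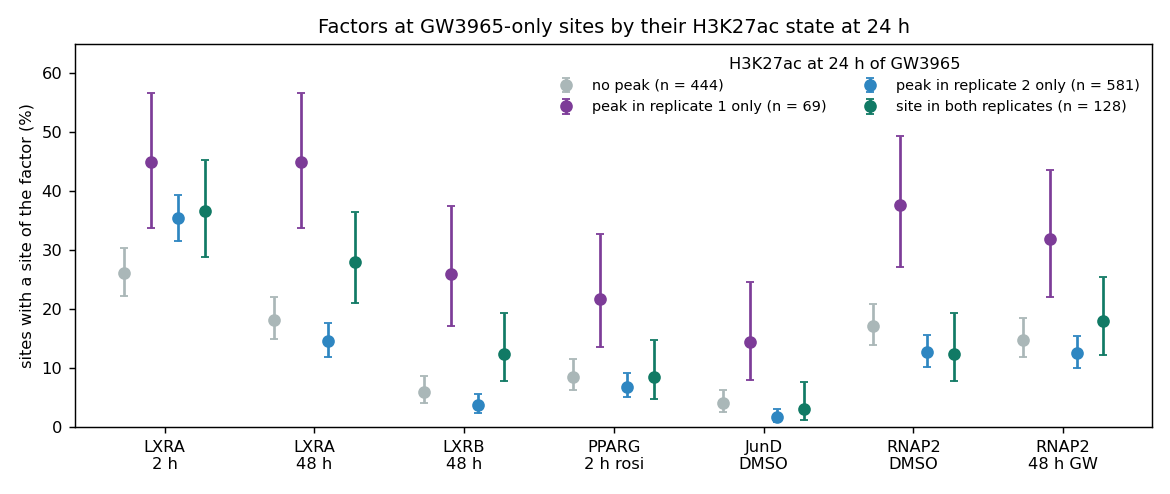
Percent of sites gained with GW3965 only (y axis) that held each factor (x axis), split by whether H3K27ac peaks were present at 24 h of GW3965 in neither replicate, replicate 1 only, replicate 2 only or both. Points are shares and bars are Wilson 95% intervals. Sites with a 24 h peak in replicate 1 only had the highest share for each factor drawn.

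RNAP2 was already present at part of the members with DMSO. An RNAP2 site was found at 192 members (15.7%, 13.8 to 17.9) with DMSO and at 184 (15.1%, 13.2 to 17.2) at 48 h of GW3965, against 68.0% and 65.1% of all 48 h GW3965 sites. At 24 h of GW3965 an RNAP2 site was at 140 members (11.5%, against 56.4% of all sites). With rosiglitazone the share was 10.1% at 24 h (against 58.7%) and 7.20% at 48 h (against 56.3%). Sites of both conditions were at 115 members. A 48 h GW3965 site without any DMSO peak was found at 48 members (3.93%, 2.98 to 5.17), against 1.91% (1.73 to 2.11) of retained sites and 2.82% (2.15 to 3.69) of sites gained with both drugs. Most retained sites had RNAP2 with DMSO and could not be counted there. Another count left out only sites with a reproducible RNAP2 site with DMSO, so single DMSO peaks were allowed. By that count, 69 of 1030 members (6.70%, 5.33 to 8.39) had an RNAP2 site at 48 h of GW3965. The shares were 26.9% of 4977 retained sites and 9.64% of 1193 sites gained with both drugs. Both the rule for DMSO peaks and the denominator differ between the counts, so their orders cannot be compared directly. A DMSO site with no reproducible GW3965 site at 48 h was found at 77 members (6.30%). In none of the 10 RNAP2 libraries was there a peak at 635 members (52.0%), against 7.76% of retained sites.

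By library, RNAP2 peaks covered 18.7% and 21.0% of members with DMSO. After GW3965 they covered 37.3% and 11.8% at 24 h and 18.4% and 21.5% at 48 h. After rosiglitazone they covered 11.9% and 17.9% at 24 h and 8.35% and 16.8% at 48 h. The GW3965 and the other libraries overlapped, and replicate 1 of 24 h of GW3965 stood highest. The mean was 22.3% ± 10.8 (SD, n = 4) with GW3965 and 15.8% ± 4.74 (SD, n = 6) with DMSO or rosiglitazone, a difference of 6.48 percentage points (exact permutation test over 210 splits, two-sided, p = 0.214). Without replicate 1 of 24 h the difference was 1.46 points (exact permutation p = 0.607), and without replicate 2 of 24 h it was 9.97 points (exact permutation p = 0.0476).

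The 203 members with the higher H3K27ac scores are given as a description, with no test, since their scores come from the GW3965 libraries that chose the members. In these 203 members with a score of at least 200 in both replicates, RNAP2 peaks covered 19.7% and 21.7% with DMSO, and 12.3%, 18.7%, 6.40% and 16.7% in the rosiglitazone libraries. After GW3965 they covered 60.1% and 18.2% at 24 h and 29.1% and 38.4% at 48 h. Both 48 h GW3965 libraries lay above all 6 DMSO and rosiglitazone libraries, whereas replicate 2 of 24 h lay among them. The means were 36.5% ± 17.8 (SD, n = 4) and 15.9% ± 5.65 (SD, n = 6), a difference of 20.5 points, or 12.6 points without replicate 1 of 24 h. H3K27ac and RNAP2 of a treatment and time were called against the same input library, and the inputs differed between treatments. The part of the inputs in this difference was not tested. RNAP2 replicate 1 and H3K27ac replicate 2 of 24 h, both high at members, met at 303 of the 456 members with that RNAP2 peak (66.4%), against 53.0% of the 766 members without it.

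**Figure D4:**
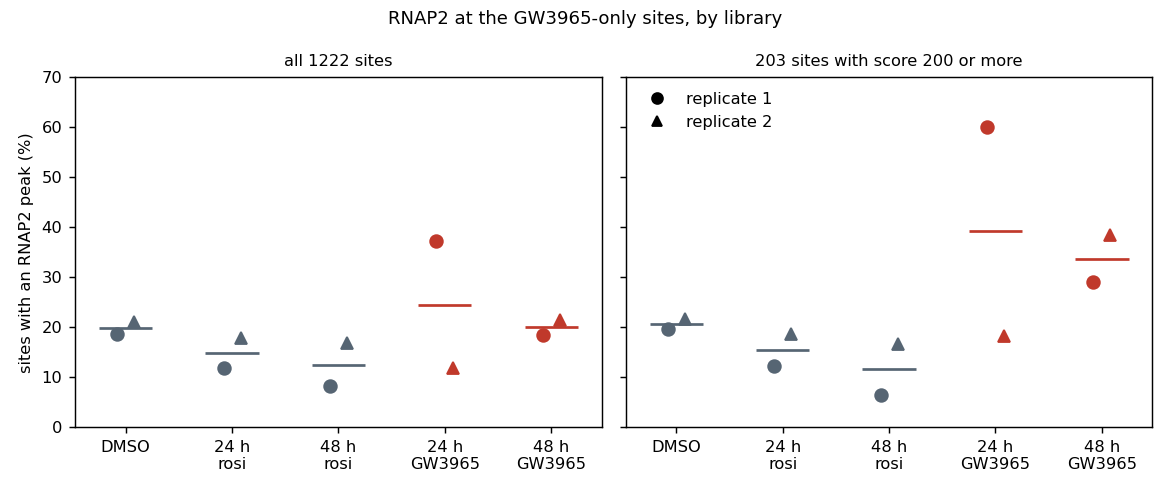
Percent of the sites gained with GW3965 only that were covered by an RNAP2 peak (y axis) in each of the 10 RNAP2 libraries (x axis, by treatment), for all 1222 sites and for the 203 with a score of at least 200 in both replicates. Circles are replicate 1, triangles replicate 2 and lines the means of the replicates. In the 203 sites, the 48 h GW3965 libraries reached 29.1% and 38.4%, against 19.7% and 21.7% with DMSO. Replicate 2 of 24 h GW3965 was at 18.2%, below both DMSO libraries. The 203 sites were picked by their H3K27ac scores with GW3965, so these shares carry no test.

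Single sites showed how far the members differed among themselves. Among those with the highest acetylation, chrX:84002704-84005555 had H3K27ac scores of 650 and 683 at 48 h and 204 and 1390 at 24 h of GW3965. It held LXRA with scores of 1301 and 729 at 2 h and 106 and 297 at 48 h, and no LXRB, JunD or PPARG peak. RNAP2 peaks were called there in replicate 1 of 24 h of GW3965, with a score of 381, and in replicate 2 of 24 h of rosiglitazone, with 107. It lay 252998 bp from the nearest excluded peak. The site chr3:153865080-153867664, with H3K27ac scores of 817 and 609, held LXRA at 48 h with scores of 1904 and 3100 and had no RNAP2 peak with DMSO, against scores of 157 and 177 at 48 h of GW3965. In contrast, chr5:67328453-67331021, with scores of 582 and 496, held no peak of LXRA, LXRB, PPARG or JunD in any library. High H3K27ac scores at a member were thus found with and without a receptor peak.

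The highest LXRB score was at chr7:84041005-84043259, 107289 bp from the nearest excluded peak. Its H3K27ac scores were 266 and 420 at 48 h and 365 and 171 at 24 h. LXRB scored 795 and 345 at 2 h and 1441 and 990 at 48 h, LXRA was listed at 3100 in all 4 libraries, and JunD scored 310 and 428. RNAP2 scored 333 and 347 with DMSO, 840 and 816 at 24 h and 788 and 900 at 48 h of GW3965, and 762, 398, 110 and 232 with rosiglitazone. RNAP2 peaks were therefore present in all 10 libraries of this site, while acetylation was called with GW3965 only. The other sites named for LXRB and JunD, chr10:128208326-128210140 and chr10:131440719-131442127, had H3K27ac at 24 h in replicate 1 only, with scores of 663 and 302, and RNAP2 peaks in both DMSO libraries. Of the other sites with high LXRB, chr1:162253128-162256359 scored 775 and 912 and chr3:133599857-133603314 scored 554 and 609 for LXRB at 48 h, without a JunD peak.

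The strongest polymerase peaks that were absent with DMSO stood at chr10:102118688-102120636. RNAP2 scored 1440 and 2775 there at 24 h and 3100 in both replicates at 48 h of GW3965, with no peak in either DMSO library and 204 in 1 library of 48 h rosiglitazone. H3K27ac scored 352 and 310 there. No LXRA or LXRB peak was called at 2 h, and at 48 h LXRA scored 102 and 157 and LXRB 112 and 121. The site chr17:27965299-27967152 had RNAP2 scores of 426 and 374 at 48 h of GW3965 and LXRA at 3100 in all 4 libraries. At chr14:76085442-76087114 the RNAP2 scores were 439 and 344. The widest members were chr1:48685004-48690372 (5369 bp), chr13:25222995-25227922 (4928 bp) and chr7:151247081-151251947 (4867 bp). The chr13 site held strong PPARG in rosiglitazone-treated cells, with scores of 2953 and 1936 at 2 h and 2691 and 2312 at 48 h, although it had no H3K27ac peak with that drug.

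RNA-seq gave the levels of the receptors and of enzymes that act on H3K27ac. With edgeR's quasi-likelihood test (Benjamini-Hochberg adjusted p under 0.01 and at least 2-fold), 727 of 22470 genes (3.24%) were higher and 570 (2.54%) lower after 48 h of GW3965, against 97 (0.445%) and 20 (0.0918%) of 21781 at 24 h. After rosiglitazone, 447 (1.99%) were higher and 870 (3.87%) lower at 48 h, and 170 (0.780%) and 305 (1.40%) at 24 h. Under scaling by library size alone, 301 were higher and 1265 lower at 48 h, with 134 higher and 403 lower at 24 h. That scaling moved the median of all genes at 48 h of rosiglitazone by -0.18 on the log2 scale. Library totals were 21044798 to 51332656 counts. NR1H3 (ENSG00000025434.14), which encodes LXRA, was at 229, 240, 257 and 227 CPM (the count scaled to the library total after TMM adjustment) after 48 h of GW3965 and at 83.2, 79.1, 67.3 and 74.8 CPM with DMSO. The groups did not overlap, and the log2 fold change was 1.65 ± 0.0624 (SE, adjusted p = 2.24e-13). With rosiglitazone NR1H3 rose by 1.09 ± 0.0618 (SE, adjusted p = 9.28e-11) on the log2 scale, so a rise of the LXRA gene was not particular to GW3965. PPARG was lower with GW3965 than with DMSO at 48 h, at 38.3 ± 1.29 against 80.9 ± 3.73 CPM (SD, n = 4 each, adjusted p = 1.78e-09). At 24 h its means were 42.2 CPM with GW3965 and 45.3 CPM with DMSO, so the DMSO level differed between the times. With rosiglitazone at 48 h the log2 fold change of PPARG was -0.468 ± 0.0763 (SE, adjusted p = 7.36e-05).

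Of the 20 listed genes (5 receptors, JUND, 2 writers, 2 readers and 4 erasers of acetylation, 4 coregulators and 2 remodellers), 3 were higher and 12 lower at adjusted p under 0.01 of any fold after 48 h of GW3965, with a median log2 fold change of -0.25. Only NR1H3 and PPARG passed 2-fold. Over all genes the same rule called 16.1% higher and 17.5% lower. JUND was at 162 ± 9.27 CPM against 263 ± 17.9 with DMSO (SD, n = 4 each), lower by 0.70 ± 0.101 (SE) on the log2 scale with adjusted p = 1.23e-05. The writer CREBBP was lower by 0.75 ± 0.0671 (SE, adjusted p = 3.25e-08) and EP300 by 0.60 ± 0.0705 (SE, adjusted p = 1.08e-06). The RXR partner gene RXRA was higher by 0.43 ± 0.0771 (SE, adjusted p = 1.33e-04). From 24 to 48 h, the DMSO means went from 108 to 263 CPM for JUND and from 126 to 193 for CREBBP. For EP300 they went from 90.6 to 130 and for RXRA from 270 to 203. The GW3965 means went from 125 to 162, 127 to 115, 87.8 to 85.7 and 282 to 274 CPM, in that order. The times were scaled and fitted apart. After 48 h of rosiglitazone 6 of the 20 were higher (12.3% of all genes) and 3 lower (13.1%), CREBBP among the higher, at 0.31 ± 0.0667 (SE), and under scaling by library size alone CREBBP was at 0.13 and no longer passed. At 24 h, 1 gene passed with GW3965 (NR1H3, with 1.86% of all genes higher and 0.868% lower), and 1 was higher and 3 lower with rosiglitazone (5.81% and 6.52% of all genes). Both drugs were compared with the same DMSO libraries.

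**Figure D5:**
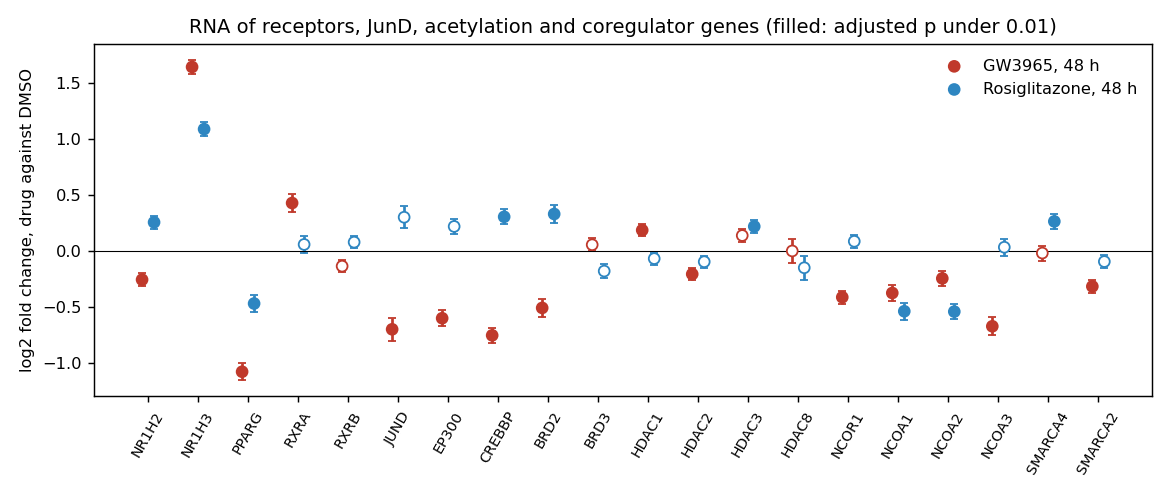
Log2 fold change against DMSO at 48 h (y axis) of 20 genes (x axis: receptors, JUND, writers, readers and erasers of acetylation, a corepressor, coactivators and remodellers) for GW3965 and rosiglitazone, 4 libraries a group. Bars are standard errors and filled points have an adjusted p under 0.01. NR1H3 was higher with both drugs, at 1.65 and 1.09, and CREBBP was at -0.75 with GW3965 and 0.31 with rosiglitazone, or 0.13 there under scaling by library size alone.

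Markers of colon epithelium were present in the RNA. Over the 32 libraries, scaled here by the library total without TMM adjustment, VIL1 lay between 46.5 and 258 CPM, EPCAM between 244 and 380, CDH1 between 240.4 and 604, KRT20 between 249.7 and 1315, LGALS4 between 633 and 1256 and CDX2 between 6.01 and 19.8. Of the markers of other cell types, the leukocyte gene PTPRC and the pericyte and fibroblast gene PDGFRB reached at most 0.112 and 0.231 CPM, and the collagen gene COL1A1 lay between 2.35 and 8.66 CPM. PECAM1 was not analysed here.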

How the data were processed

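H3K27ac, RNAP2, LXRA, LXRB, PPARG and JunD were measured by ChIP-seq and RNA by RNA-seq, in HT29 cells grouped by the sample labels. Per the submitters' processing notes, reads were aligned to hg19 with Bowtie and peaks called with MACS (their versions: not given in the sources used here). The authors deposited 1 peak list per library, whose score is minus 10 times the log10 of the p that MACS gave. The authors also deposited raw counts per gene, made after alignment with TopHat. Cufflinks is named in the same notes.

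Starts were read as counted from 0 and are printed from 1. Overlaps of at least 1 bp were computed with Python 3.11.15, pandas 2.3.3 and numpy 2.4.6 and checked against bedtools 2.31.1. Shares have Wilson 95% intervals. The share of members with an RNAP2 peak was compared between 4 GW3965 and 6 other libraries with an exact permutation test, in Python, over all 210 splits. Counts were filtered by expression, scaled by TMM and fitted with edgeR 4.0.16 in R 4.3.3, all 16 libraries of a time together, at an adjusted p (Benjamini-Hochberg) under 0.01 and at least 2-fold. DESeq2 1.42.0 was an alternative, as were other overlaps, score minimums, peak numbers, scalings and left-out libraries. The scripts were tested on simulated data. Plots were drawn with matplotlib 3.10.9.

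The members, gene lists and tests were chosen with earlier results of these data known. Named regions were, outside chromosome 8 and ranked by the lower score of the replicates, the 5 with the highest H3K27ac, the 5 with the highest LXRB at 48 h, the 3 with the highest LXRB among those with JunD, the 3 with the highest RNAP2 at 48 h of GW3965 without a DMSO peak, and the 3 widest. Named genes came from a list of 20, and some genes are not reported here. Genes near the sites and their sequences were not analysed here.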

Additional observations from a re-analysis of the deposited data

Results flagged for a closer look

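A sample stood apart from the others of its group in 5 of 122 groups of gene levels or RNAP2 shares, where chance gives about 5%. All 5 were groups of gene levels. With DMSO at 24 h, the lowest RXRB value was 43.4 CPM (next 44.4) and the highest EP300 value was 95.5 CPM (next 89.2). With GW3965 at 24 h, the lowest JUND value was 84.9 CPM (next 134) and the highest NCOA2 value was 40.5 CPM (next 38.1). The lowest SMARCA4 value with rosiglitazone at 48 h was 264 CPM (next 304).

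For 4 genes, the values of all 4 samples of a drug lay on one side of the DMSO mean at 24 h and on the other side at 48 h, and the difference between the times was not tested. None of the 4 passed the edgeR test at 24 h (adjusted p 0.433, 0.569 and 0.377 for NR1H2, HDAC1 and NCOR1 with GW3965 and 0.391 for HDAC2 with rosiglitazone), and HDAC2 did not pass at 48 h (adjusted p = 0.177). With GW3965, the log2 fold change of NR1H2 was 0.10 at 24 h and -0.25 at 48 h, that of HDAC1 was -0.07 and 0.19, and that of NCOR1 was 0.09 and -0.41. With rosiglitazone, HDAC2 was at 0.10 and -0.09.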

How the results depend on the processing

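With a score of at least 200 in both replicates, there were 203 sites, of which 13.3% had LXRB at 48 h and 22.2% a 24 h H3K27ac site, and the RNAP2 difference was 20.5 points, given with no test since the scores come from libraries that chose the sites. Leaving out each RNAP2 library from these 203, an alternative chosen after seeing the data, gave 21.3 and 21.7 without DMSO replicates 1 and 2, 12.6 and 26.6 without those of 24 h GW3965, 23.0 and 19.9 without those of 48 h GW3965, 19.8 and 21.1 without those of 24 h rosiglitazone, and 18.6 and 20.7 without those of 48 h rosiglitazone. At a score of at least 500, 4 sites were left, with LXRB at 50%, a 24 h site at 75% and JunD at 0%. With the same number of peaks in the 8 H3K27ac libraries of the rule, there were 725 sites, with LXRB at 11.3%, JunD at 5.38% and a 24 h site at 25.5%. Counting a peak in either replicate gave 12.1% for LXRB and 5.40% for JunD. The cause of these moves was not tested.

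With 1 library left out, the number of sites was 1254 to 3527 (2526 without replicate 1 and 3527 without replicate 2 of 48 h GW3965, where a site needs 1 peak), LXRB 4.11% to 10.2%, JunD 2.61% to 4.91%, the 24 h share 6.65% to 58.0% (58.0% without replicate 1 and 14.8% without replicate 2 of 24 h), and the RNAP2 difference 1.46 to 9.97 points. Called genes lay between 102 and 121 for GW3965 at 24 h, 1182 and 1329 at 48 h, 411 and 468 for rosiglitazone at 24 h and 1136 and 1509 at 48 h. At 1.5-fold they were 291, 3608, 1077 and 2738. With the replicate block they were 109, 1287, 459 and 1297. Same-numbered samples correlated between -0.103 and 0.0792, and 3 of 16 matched their own number best, so no pairing by number was seen. Whether same-numbered samples shared a culture or batch is not known from the labels. Of 406 values of the named genes, 369 kept their call, 37 lost it and 0 changed direction. Genes near the sites were planned and not run, since no hg19 annotation was used here.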
